A study of Homo sapiens with 2 samples.

Results

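Distal intergenic peaks are stretches of accessible chromatin that lie away from genes. They were taken here as the peaks of both deposited lists on chromosomes 1 to 22 and X that overlapped no protein-coding gene and lay more than 3 kb from every end of a protein-coding or noncoding RNA gene. Peaks inside stretches of 1 Mb or more without any annotated gene were left out. This gave 403 of 2010 peaks in the control library (20.05%, interval 18.3 to 21.9%) and 473 of 2418 in the knockdown library (19.6%, 18.0 to 21.2%), in all 876 of 4428 peaks. Peaks inside a noncoding RNA gene or over a pseudogene remained in the set.

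The peaks came from ATAC-seq, in which a transposase inserts sequencing adapters into accessible DNA, in C4-2, a subline of the LNCaP prostate cancer line that grows without androgen. The control library came from C4-2 cells with a control shRNA (shCTR), and the knockdown library from C4-2 cells with an shRNA against WHSC1 (shWHSC1). These groups follow the labels, while the name of the deposited control list reads NSD2 wild type. WHSC1 is another name of NSD2, a histone H3 lysine methyltransferase whose mark covers gene bodies and intergenic chromatin. Both groups are the same line, grown in RPMI with serum, and each is 1 library, so no difference between them has a replicate check and no p-value is given. Intervals are at the 95% level. For shares and ratios of counts they are exact (Clopper-Pearson), and for peaks per Mb of a chromosome exact Poisson. For medians they come from the ranked values. They hold only counting error or, for medians, sampling of the values, with no variation between replicate libraries. Neighbouring peaks are not independent.

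Accessible sites far from genes can be enhancers, insulators that bind CTCF, or promoters of transcripts missing from the annotation. An enhancer loops to its target promoter over a variable distance and can skip the nearest gene, so the nearest gene is an address here and not a target. The fold of each peak is the authors' own value, the enrichment over the local background that their peak caller estimated in the same library. Read depth is unknown, and a peak list cannot check how far WHSC1 was knocked down.

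The numbers of distal intergenic peaks in the 2 libraries followed the lengths of the lists. The ratio of knockdown to control was 1.17 (interval 1.03 to 1.34) for distal intergenic peaks and 1.21 (1.13 to 1.29) for all other peaks. The knockdown list was also cut to the length of the control list by keeping its peaks of highest −log10 q. This left 341 knockdown against 403 control peaks, a ratio of 0.846. The cut removed only the weakest knockdown peaks, many of them distal intergenic, and kept those of the control. A lower knockdown count is therefore what the cut itself favours. With a −log10 q of at least 5 in both lists the ratio was 1.48, from only 34 knockdown and 23 control peaks. No interval was computed for it, and over all peaks of that strength the counts were 239 against 191. Joined across libraries, the peaks formed 750 regions: 124 held a distal intergenic peak of both libraries, 277 a control peak alone and 349 a knockdown peak alone. The peaks covered 171 kb in the control and 209 kb in the knockdown.

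Most distal intergenic peaks were weak and narrow. In the control library the fold ranged from 2.47 to 10.2 with a median of 3.50 (interval 3.43 to 3.55). In the knockdown library it ranged from 2.45 to 10.7 with a median of 3.37 (3.34 to 3.39). The median width was 303 bp in the control and 308 bp in the knockdown, against 386.5 and 391 bp for peaks at the ends of protein-coding genes. A −log10 q of 5 was reached by 23 control peaks (5.71%), where 9.5% of all control peaks reached it, and by 34 knockdown peaks (7.19%), where 9.88% did. More than 60% of the distal intergenic peaks in either library had a −log10 q below 2 (61.8% in the control, 60.9% in the knockdown). Weakness and narrowness were not particular to them. Peaks inside protein-coding genes, away from their ends, had median widths of 311 and 315 bp and median folds of 3.52 and 3.39 (control and knockdown). A smaller share of those reached a −log10 q of 5: 8 of 325 in the control and 14 of 425 in the knockdown.

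The strongest distal intergenic peaks were called in both libraries and lay in a few places. The highest fold in both was at chr21:8234123-8234812 (GRCh38), on the short arm of chromosome 21, where the control fold was 10.2 and the knockdown fold 10.7. It lay 4.42 kb from the pseudogene CDC27P9 and 14.7 kb from MIR6724-2, a microRNA gene of the ribosomal RNA repeats. A second peak of that arm, at chr21:8420109-8420462, overlapped the pseudogene CDC27P10 and had a control fold of 6.01 and a knockdown fold of 6.27. A further one, at chr21:8228666-8229555, lay 9.36 kb from RNA45SN2, one of the ribosomal RNA precursor genes, and was called in the knockdown only (5.19-fold). All 6 control and all 9 knockdown peaks of chromosome 21 lay within 3 Mb of a gene-free stretch.

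Beyond chromosome 21, the highest folds lay beside CWH43, a gene of lipid remodelling on GPI anchors, next to the centromere of chromosome 4. The peak at chr4:49107365-49109037 reached 6.29-fold in the control against 4.31-fold in the knockdown. The peak at chr4:49322853-49323950 went the other way, with 5.93-fold against 8.69-fold. On chromosome 8, a peak at chr8:85659839-85660603 lay 0.653 kb from the pseudogene REXO1L1P, with a control fold of 5.52 and a knockdown fold of 5.24. Genes and pseudogenes with near-identical copies can share reads, so the values of CDC27P9, CDC27P10, RNA45SN2, MIR6724-2 and REXO1L1P are uncertain. How reads that map to several places were treated is unknown. The same caution therefore holds for the CWH43 peaks and for other peaks near gene-free stretches.

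Many of the strong peaks lay close to the gene-free stretches. A limit of 3 Mb from such a stretch, chosen after the data were seen, held 46 of the 403 control peaks and 14 of the 23 with a −log10 q of 5 or more. In the knockdown it held 59 of 473 peaks and 16 of the 34 strong ones. The peaks within 3 Mb were wider, with a median of 529 bp against 296 bp in the control and 558 bp against 297.5 bp in the knockdown. They were also shared more often: 58.7% (43.2 to 73.0%) of them in the control had a partner in the knockdown, against 27.7% (23.1 to 32.7%) of those farther away. In the knockdown these shares were 42.4% (29.6 to 55.9%) and 23.9% (19.9 to 28.3%).

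Away from these stretches the highest folds were at single sites. The REXO1L1P site named above was among them in both libraries. A peak at chr3:28788605-28788933 lay between LOC107986012 and RBMS3, an RNA-binding protein gene, with a fold of 5.72 in the control against 4.26 in the knockdown. A peak 16.5 kb from FEZF1, a zinc finger transcription factor of forebrain development, had a control fold of 5.10 and a knockdown fold of 3.37. A peak 5.29 kb from CCDC190 had 5.08-fold and 4.06-fold, and one 26.4 kb from CHD7, a chromatin remodeller, 4.81-fold and 3.44-fold. In the knockdown list the REXO1L1P site led those of this kind (5.24-fold), and the sites that followed it were others. A peak at chr9:6681048-6681792, between GLDC, a glycine-cleaving enzyme, and KDM4C, a histone demethylase, had 5.21-fold in the knockdown and 4.35-fold in the control. A peak inside the noncoding RNA gene LINC00992 on chromosome 5 had 5.02-fold and 3.87-fold. A peak whose nearest protein-coding gene was TRPS1, a transcriptional repressor of the GATA type, lay 822 kb from it and had 4.97-fold in the knockdown and 3.66-fold in the control. A peak 347 kb from SOX6, a transcription factor of cartilage, muscle and neuronal development, had 4.83-fold and 3.77-fold. These peaks were picked for a high fold in 1 library, so a lower value in the other is what the choice itself favours.

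A minority of distal intergenic peaks were called in the other library, with an overlap of 1 bp or more counted as shared. The count was 126 of 403 control peaks (31.3%, interval 26.8 to 36.04%), against 54.1% of all control peaks. It was 124 of 473 knockdown peaks (26.2%, 22.3 to 30.4%), against 44.7% of all knockdown peaks. The numbers differ because a peak of one library can span 2 peaks of the other. Every partner was itself a distal intergenic peak. Of the 277 unshared control peaks only 2 lay within 1 kb of any knockdown peak, and of the 349 unshared knockdown peaks 2 lay within 1 kb of a control peak. The median distance to the nearest peak of the other library was 327 kb and 365 kb.

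Stronger peaks were shared more often. Of control peaks with a −log10 q of 1 to 1.5, 6.20% (8 of 129) were shared. The share was 27.5% from 1.5 to 2, 40.0% from 2 to 3, 63.0% from 3 to 5, and 95.7% (22 of 23) at 5 or more. In the knockdown the same steps gave 7.69% (12 of 156), 13.6%, 35.1%, 57.4% and 85.3% (29 of 34). At the same strength the shares were still lower than those of peaks at gene ends. Weighted to the −log10 q of the distal intergenic peaks, peaks at protein-coding gene ends were shared at 56.4% in the control and 44.7% in the knockdown. Peaks inside protein-coding genes, away from their ends, came to 36.9% and 28.5%, nearer to the distal intergenic shares of 31.3% and 26.2%.

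**Figure D1:**
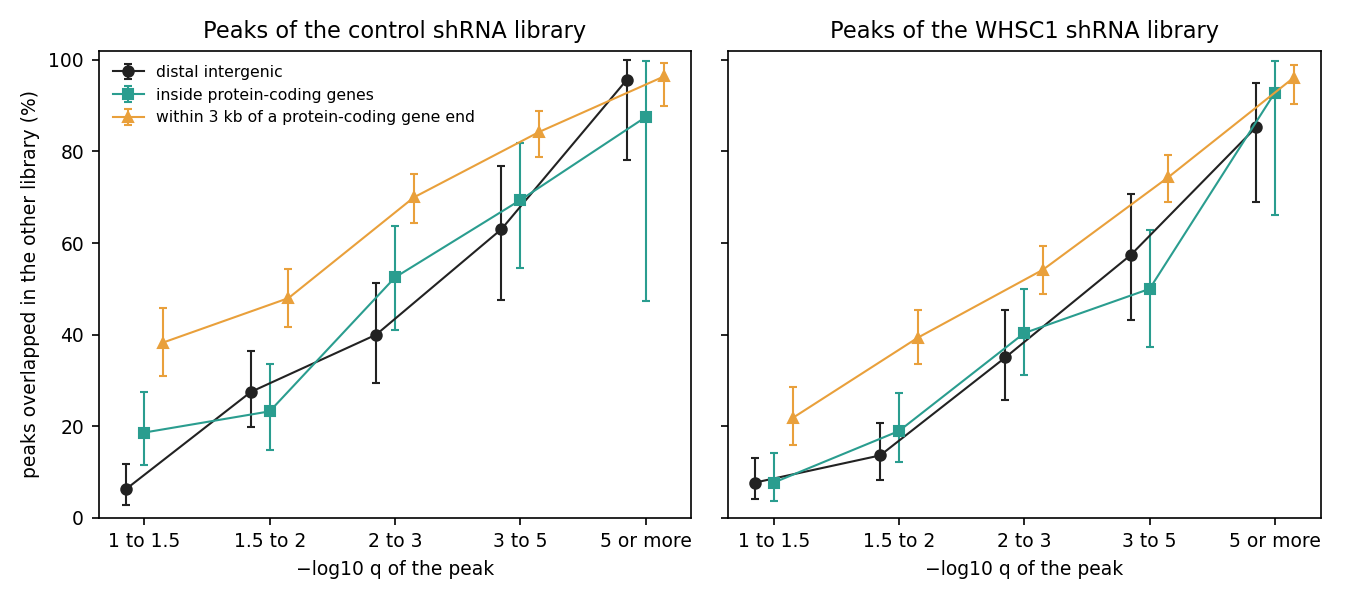
Share of peaks (y axis, percent) overlapped by a peak of the other library, by the −log10 q of the peak (x axis), for distal intergenic peaks (black circles), peaks inside protein-coding genes (green squares) and peaks at protein-coding gene ends, within 3 kb of them (orange triangles). Bars are 95% exact intervals. The share of distal intergenic peaks climbs from 6.20 to 95.7% in the control and from 7.69 to 85.3% in the knockdown, and in the 3 weakest steps it lies below that of peaks at gene ends in both libraries.

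The strongest unshared peaks show where one list had a site that the other lacked. In the control list the first by −log10 q was at chr8:111114195-111114473 inside the noncoding RNA gene LINC01609 (4.19-fold, −log10 q of 5.56). It was the only unshared control peak past 5. The next were near LOC124903206 on chromosome 13 (4.81-fold), PCDH15, a protocadherin of sensory hair cells (272 kb away, 4.73-fold), and PYDC2, a pyrin domain gene (12.5 kb, 3.55-fold). Others of the 10 had far nearest protein-coding genes. These were NEGR1 (616 kb away, 4.58-fold) and NOVA1 (502 kb, 4.57-fold), both neuronal genes, and ACO1, an iron-regulated aconitase (248 kb, 4.10-fold). A closer one was 28.2 kb from SEL1L, of protein quality control in the endoplasmic reticulum (3.89-fold).

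In the knockdown list 5 unshared peaks passed a −log10 q of 5. Besides the one near RNA45SN2, they lay near LMNTD1 on chromosome 12 (4.46-fold, 89.7 kb), PLS3, an actin-bundling plastin on chromosome X (4.82-fold, 81.6 kb), PDZRN3, a ubiquitin ligase gene (4.22-fold, 179 kb), and on the short arm of chromosome 22 (4.74-fold). The next were 13.5 kb from FEM1C, a substrate receptor of ubiquitin ligases (4.26-fold), 61.1 kb from SEMA3A, an axon guidance ligand (4.26-fold), and inside the noncoding RNA gene CASC15 (4.31-fold). A peak 294 kb from FZD1, a Wnt receptor, had 3.97-fold enrichment. A peak absent from a list is one that did not pass the authors' threshold there, and its fold in that library is not given in the files.

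Over the 126 shared pairs the folds of both libraries were close. The median fold was 3.63 against 3.56 (control against knockdown), and the median ratio of knockdown to control was 1.01, with a range from 0.661 to 1.47. The knockdown value was the higher in 67 of 126 pairs (53.2%, interval 44.1 to 62.1%), against 281 of 661 pairs at protein-coding gene ends (42.5%, 38.7 to 46.4%) and 45.6% of all shared pairs. Across pairs the log2 folds had a Pearson correlation of 0.727 and the folds a Spearman correlation of 0.602 (n = 126 pairs, which share 2 libraries and the threshold). A ratio of 1.2 or more was found in 9 pairs and of 1/1.2 or less in 15.

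The largest ratios toward the knockdown began with the CWH43 peak at 1.47. The next, by nearest protein-coding gene, were TRPS1 (1.36, 822 kb away), LOC124900192 (1.30), SOX6 (1.28, 347 kb away), AGTR1, the type 1 angiotensin receptor gene (1.26), and KCNU1, a potassium channel gene (1.24). The largest toward the control were near FEZF1 (0.661), the other CWH43 peak (0.685), DEFB115 (0.714, where 1 knockdown peak spans 2 control peaks), CHD7 (0.715) and LOC107986012 (0.745). TNFRSF11B, which encodes the decoy receptor osteoprotegerin, followed with a fold of 4.15 against 3.23 (0.777). With 1 library each these ratios carry no error.

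**Figure D2:**
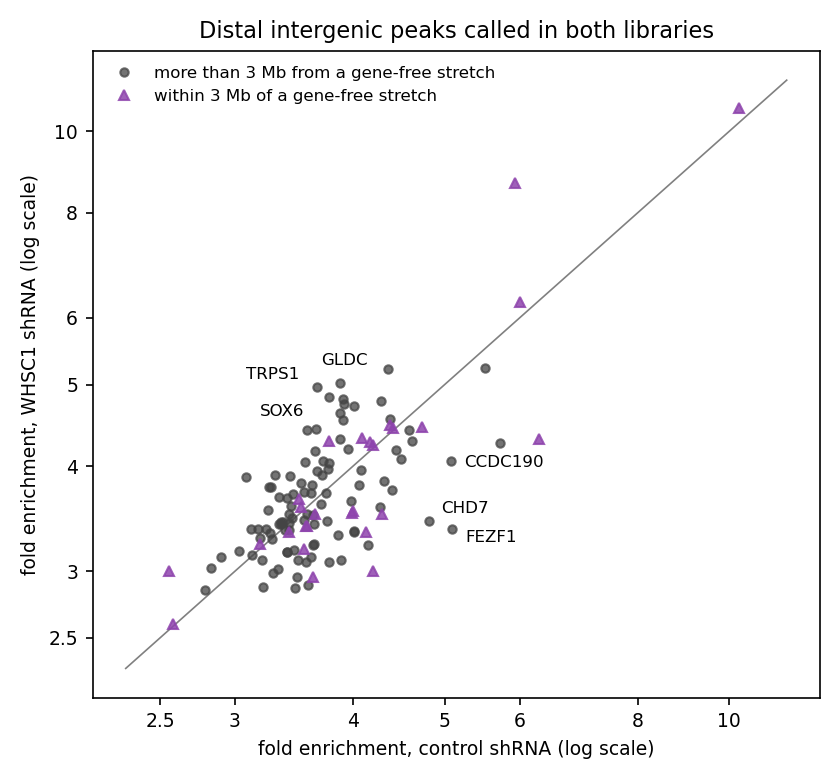
Fold enrichment of each distal intergenic peak called in both libraries, control shRNA (x axis, log scale) against WHSC1 shRNA (y axis, log scale), with the line of equal values. Circles are peaks more than 3 Mb from a gene-free stretch and triangles those within it, and names are nearest protein-coding genes. Most of the 126 pairs sit between 3 and 5 near the line, and the triangles hold the highest values, up to 10.2 and 10.7.

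Distal intergenic peaks lay a median of 132 kb (interval 112 to 167 kb) from the nearest protein-coding gene in the control and 131 kb (112 to 161 kb) in the knockdown. For comparison, all positions the rule allows were taken on a 5-kb grid (277476 points over 1388 Mb) and weighted to the chromosomes of the peaks, which gave medians of 114 and 113 kb. The nearest gene of any kind was a median of 15.7 kb away in the control and 15.6 kb in the knockdown. A median of 2 protein-coding genes had their middle within 500 kb of a distal intergenic peak, against 7 for peaks at protein-coding gene ends, in both libraries.

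Few peaks lay close to the limit of the rule. A protein-coding gene was within 10 kb of 5.21% of the control members (3.25 to 7.86%) and 5.92% of the knockdown members (3.97 to 8.44%), against 8.62 and 8.60% of the allowed positions. From 10 to 50 kb the shares were 18.6% (14.9 to 22.8%) and 21.8% (18.1 to 25.8%), against 24.3% in both. Beyond 500 kb lay 16.4 and 17.8% of peaks, against 15.97 and 15.9% of positions. The density of peaks was low in short gaps between protein-coding genes: 0.153 per Mb in the control and 0.235 in the knockdown where the gap was under 50 kb, and 0.160 and 0.177 from 50 to 100 kb. In gaps of 1 Mb or more it was 0.348 and 0.385 per Mb, and 0.290 and 0.341 over all.

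**Figure D3:**
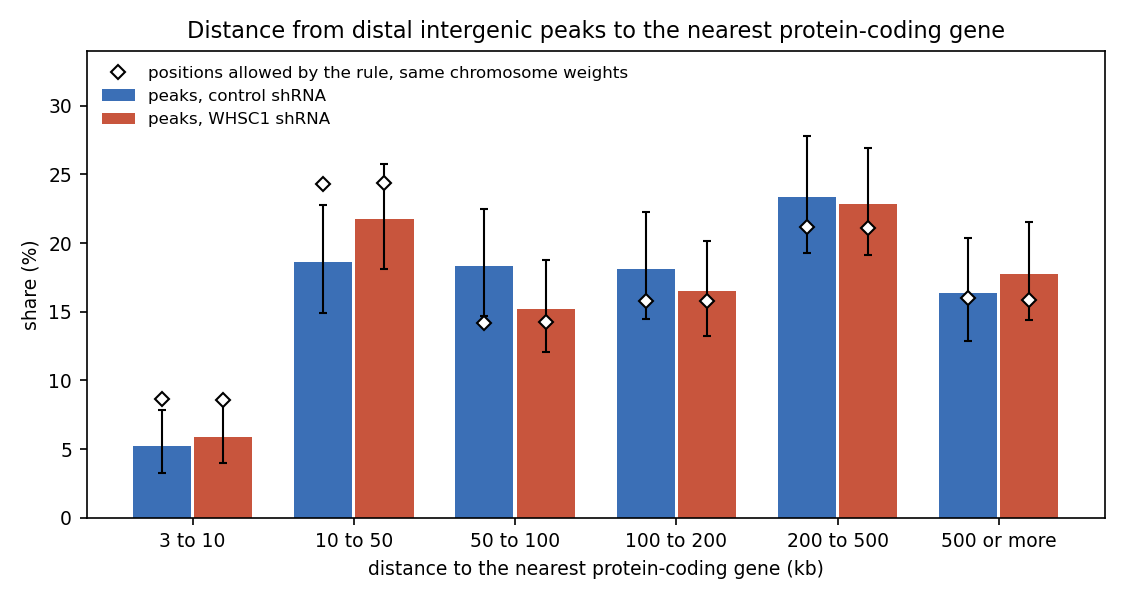
Share of distal intergenic peaks (y axis, percent) by distance to the nearest protein-coding gene (x axis, kb), control in blue and knockdown in red, with 95% exact intervals. Diamonds give the share of all positions the rule allows, weighted to the chromosomes of the peaks. Under 10 kb the bars, 5.21 and 5.92%, stand below the diamonds at 8.62 and 8.60%, and beyond 100 kb bars and diamonds lie close.

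The 2 control peaks nearest to the limit were both 3048 bp from a gene end. One lay inside the noncoding RNA gene LOC105377503, 68.4 kb from MAP9 (3.51-fold), and the other beside HES1, a Notch-response repressor (3.02-fold). The nearest in the knockdown were 3042 bp from ANKRD36 (3.79-fold) and 3103 bp from the olfactory receptor gene OR2F1 (3.64-fold). Just outside, and not members, were control peaks at 2964 and 2892 bp (3.22- and 3.35-fold) and a pair of knockdown peaks at 2934 bp (3.52- and 4.72-fold). Both of these knockdown peaks were shared, and none of the 4 peaks just inside was.

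The neighbouring gene faced the peaks with either end about equally often. Strand was known for 79.2% of the 19974 protein-coding genes. Where it was, the nearest gene faced the peak with its 5′ end in 153 of 296 cases in the control (51.7%, 45.8 to 57.5%) and in 170 of 344 in the knockdown (49.4%, 44.0 to 54.8%). The allowed positions gave 52.9 and 53.1%. Peaks at protein-coding gene ends stood at the 5′ end in 843 of 859 cases (98.1%) in the control and 993 of 1024 (97.0%) in the knockdown.

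The nearest gene of any kind was most often a noncoding RNA gene, for 55.6% of control and 52.9% of knockdown peaks, against 55.4 and 55.3% of the allowed positions. It was a pseudogene for 32.0% (interval 27.5 to 36.8%) and 33.0% (28.8 to 37.4%), against 27.4 and 27.6%. A protein-coding gene was nearest for 12.4% and 14.2%, against 16.8% in both. Peaks inside a noncoding RNA gene made up 26.1% (21.8 to 30.6%) in the control and 22.4% (18.7 to 26.4%) in the knockdown, against 21.9 and 22.0% of positions. Only 12 control and 21 knockdown peaks overlapped a pseudogene.

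A microRNA gene was the nearest gene of 4 control and 6 knockdown peaks. The site closest to one in the control was at chr6:71393708-71393945, 9.61 kb from MIR30A, with 4.34-fold enrichment in the control and no peak in the knockdown. MicroRNAs of the miR-30 family act on epithelial and differentiation genes through their seed. A site whose nearest gene was MIR10524, 137 kb away, was called in both libraries, with a control fold of 3.64 and a knockdown fold of 4.17. Another shared site lay 111 kb from MIR12123 (3.36-fold and 3.42-fold), whose RNA is not shown. The mature RNAs of MIR30A and MIR10524, from RefSeq (GRCh38.p14), are shown 5′ to 3′. These genes are the nearest to a site of 1 library and to a site of both. Capitals mark the seed, bases 2 to 8, and the 3 seeds differ.
hsa-miR-30a-5p: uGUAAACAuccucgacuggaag
hsa-miR-30a-3p: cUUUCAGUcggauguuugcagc
hsa-miR-10524-5p: cAGGAUGCcagcauagu

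Some distal intergenic peaks lay beside genes with an accessible end of their own. In the control the nearest protein-coding gene had a peak at an end for 74 of 403 peaks (18.4%, interval 14.7 to 22.5%), where 6.3% of all protein-coding genes had one and 12.5% of the allowed positions, weighted by chromosome, were nearest to such a gene. In the knockdown this held for 75 of 473 (15.9%, 12.7 to 19.5%), with 7.54% of genes and 13.9% of positions. For peaks under 50 kb from their gene the control count was 24 of 96 (16.7 to 34.9%), against 9.61% of positions. The knockdown count was 20 of 131 (15.3%, 9.58 to 22.6%) against 11.3%, and the difference between libraries was not tested. A peak at a protein-coding gene end stood within 100 kb of 9.68% (6.97 to 13.0%) of the control members and 7.82% (5.57 to 10.6%) of the knockdown members, against 5.58 and 6.55% of positions.

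The nearest protein-coding genes numbered 329 in the control (1.65% of 19974) and 372 in the knockdown (1.86%). Of these, 157 were nearest to a peak in both libraries, which is 47.7% of the control genes and 42.2% of the knockdown genes. A gene could be counted there through different, unshared peaks of the libraries. Of the peaks themselves 31.3 and 26.2% were shared. The same gene count was not made for other kinds of peaks. Over both libraries 544 genes were involved (2.72%), and 422 of them with 1 region.

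Few genes of prostate identity, chromatin or immune function were among them. Of 20 androgen receptor and luminal prostate genes, 1 was nearest to a control peak: NDRG1, an androgen-regulated stress gene, 29.7 kb from a peak at chr8:133326953-133327232 (3.52-fold). None was nearest to a knockdown peak. Of 19 cell cycle genes, CDK6, which drives entry into S phase, had a knockdown peak 97.5 kb away (3.42-fold). Of 10 neuroendocrine markers, SOX2 had one at 121 kb (3.16-fold). All 3 peaks were unshared. No gene of the lists for histone methylation (19, NSD2 included), MHC class I presentation (19), chemokines and cytokines (21), interferon response and nucleic acid sensing (30), leukocytes (15), stroma, endothelium and basal epithelium (16) or housekeeping (15) was nearest to a distal intergenic peak in either library. With 1.65 and 1.86% of all genes called, lists of this size hold less than 1 such gene at the background share.

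Larger families were set by the start of the gene symbol, which can bring in genes of another function. They are given beside the share over all protein-coding genes, 1.65% in the control and 1.86% in the knockdown. Among 211 developmental transcription factors, 8 (3.79%, interval 1.65 to 7.33%) were nearest to a control peak. To a knockdown peak 6 (2.84%, 1.05 to 6.09%) were nearest, and 3 of these genes were so in both. Besides SOX6, SOX14 had a control peak 125 kb away (4.40-fold) and POU4F1, of sensory neurons, one at 224 kb (3.79-fold). Among 93 cadherins and protocadherins, which join cells, 6 (6.45%, interval 2.40 to 13.5%) and 5 (5.38%, 1.77 to 12.1%) were nearest to a peak. Besides PCDH15, PCDH18 and PCDH10 were nearest to 3 control peaks each, at 481 to 837 kb and 412 to 902 kb. The highest of these had 3.81-fold and 3.69-fold enrichment. CDH7 had a knockdown peak 16.3 kb away (3.55-fold). Among 109 neuronal adhesion and leucine-rich repeat genes, 7 were nearest in each library (6.42%, interval 2.62 to 12.8%). CNTN5, a contactin, had a shared peak 584 kb away, with a control fold of 4.06 and a knockdown fold of 3.80. SLITRK1 had a control peak 812 kb away (3.91-fold), CNTNAP3B one at 108 kb (3.90-fold) and LRRC4C a knockdown peak at 669 kb (3.71-fold). Among 33 glypicans, semaphorins and slit-robo genes, which guide axons and migrating cells, 3 (9.09%, 1.92 to 24.3%) and 4 (12.1%, 3.40 to 28.2%) were nearest. Besides SEMA3A, SEMA3D had a shared peak 114 kb away, with a control fold of 4.01 and a knockdown fold of 3.35.

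Olfactory receptor genes, which stand in dense arrays, had 1 and 5 of 392 (0.255 and 1.28%), beside 1.65 and 1.86% of all protein-coding genes. Zinc finger genes had 6 and 3 of 518 (1.16 and 0.579%), and solute carriers 6 and 4 of 386 (1.55 and 1.04%). Potassium channels had 3 and 6 of 96 (3.125 and 6.25%). KCNU1 had a pair of shared peaks on chromosome 8, both with the higher fold in the knockdown: 4.42 against 3.57, and 3.90 against 3.31. These genes differ in the size of the gaps around them, and a gene beside a long gap can be nearest to more peaks. The lists were set with earlier results of the same data known, and nothing particular to a family is drawn from its count.

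Distal intergenic peaks were spread unevenly over chromosomes, in nearly the same order in both libraries. Chromosome 8 was the densest, with 52 control peaks (0.702 per Mb of allowed sequence, interval 0.524 to 0.920) and 62 knockdown peaks (0.837, 0.642 to 1.07). Chromosome 3 followed, with 46 (0.498) and 61 (0.660), and chromosome 7 had 30 (0.428) and 44 (0.628). Chromosome X had 2 peaks in each library over 93.5 Mb (0.0214 per Mb). Across the 23 chromosomes the densities of the libraries had a Pearson correlation of 0.931 and a Spearman correlation of 0.928. Density also moved with the share of protein-coding genes that had a peak at an end, with Spearman correlations of 0.654 (control) and 0.549 (knockdown). On chromosome 8 that share was 15.7% in both libraries and on X 1.77% in both. These correlations describe 23 chromosomes of the same libraries, and what else moves with them was not tested.

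On each of the 23 chromosomes the interval of the ratio between libraries included 1. The ratio of knockdown to control was 1.47 (0.902 to 2.42) on chromosome 7 and 1.38 (0.870 to 2.22) on chromosome 5. On chromosome 18 it was 0.364 (0.0844 to 1.23), with 11 control and 4 knockdown peaks, 1 of them shared. There the share of genes with a peak at an end was the other way, 7.04% in the control and 12.2% in the knockdown.

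**Figure D4:**
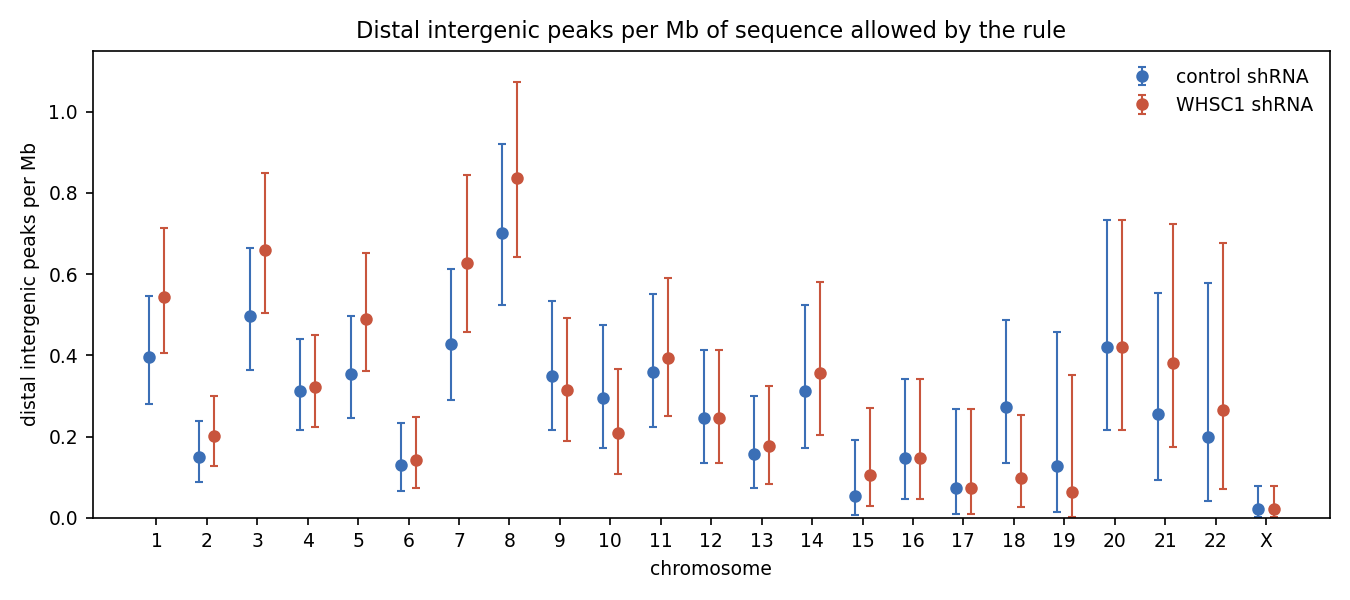
Distal intergenic peaks per Mb of sequence the rule allows (y axis) on each chromosome (x axis), control in blue and knockdown in red, with 95% exact Poisson intervals. Chromosome 8 is highest in both libraries (0.702 and 0.837) and X lowest (0.0214 in both).

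Most distal intergenic peaks stood alone. Chained at gaps of up to 50 kb, 370 of 403 control peaks (91.8%) and 425 of 473 knockdown peaks (89.9%) had no other distal intergenic peak beside them. A cluster, meaning 3 or more chained peaks, was found 3 times in the control (13 peaks) and 4 times in the knockdown (14 peaks). Without peaks within 3 Mb of a gene-free stretch there was no cluster in either library. The treatment of reads that map to several places is unknown, so the values of these clusters are uncertain too.

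The cluster with the highest −log10 q lay on chromosome 16, from 34571542 to 34595580 in the control, 182 kb from LOC124903767. It held 5 control peaks of 2.58- to 4.73-fold and 4 knockdown peaks of 2.60- to 4.45-fold, because 1 knockdown peak covered 2 control peaks. Its peak at chr16:34585627-34588385 had the highest −log10 q of all control members, 91.3, at only 3.57-fold enrichment, and in the knockdown 90.5 at 3.40-fold. The control peak was 2759 bp wide, against the median of 303 bp.

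A second cluster, on chromosome 20 from 31055517 to 31075823 and 182 kb from the defensin gene DEFB115, held 5 control peaks of 2.47- to 4.20-fold and 3 knockdown peaks of 3.0- to 3.51-fold. The last cluster found in both libraries, beside CWH43 on chromosome 4, held 3 control peaks over 18.8 kb and 4 knockdown peaks over 48.2 kb. Its first site had 3.77-fold against 4.29-fold (control against knockdown), its second, named above, 6.29 against 4.31, and the next 4.41 against 4.43. A further cluster, on chromosome 20 from 28824488 to 28842608, was present as such only in the knockdown list (3 peaks of 3.42- to 4.24-fold), and the control had 1 distal intergenic peak there.

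**Figure D5:**
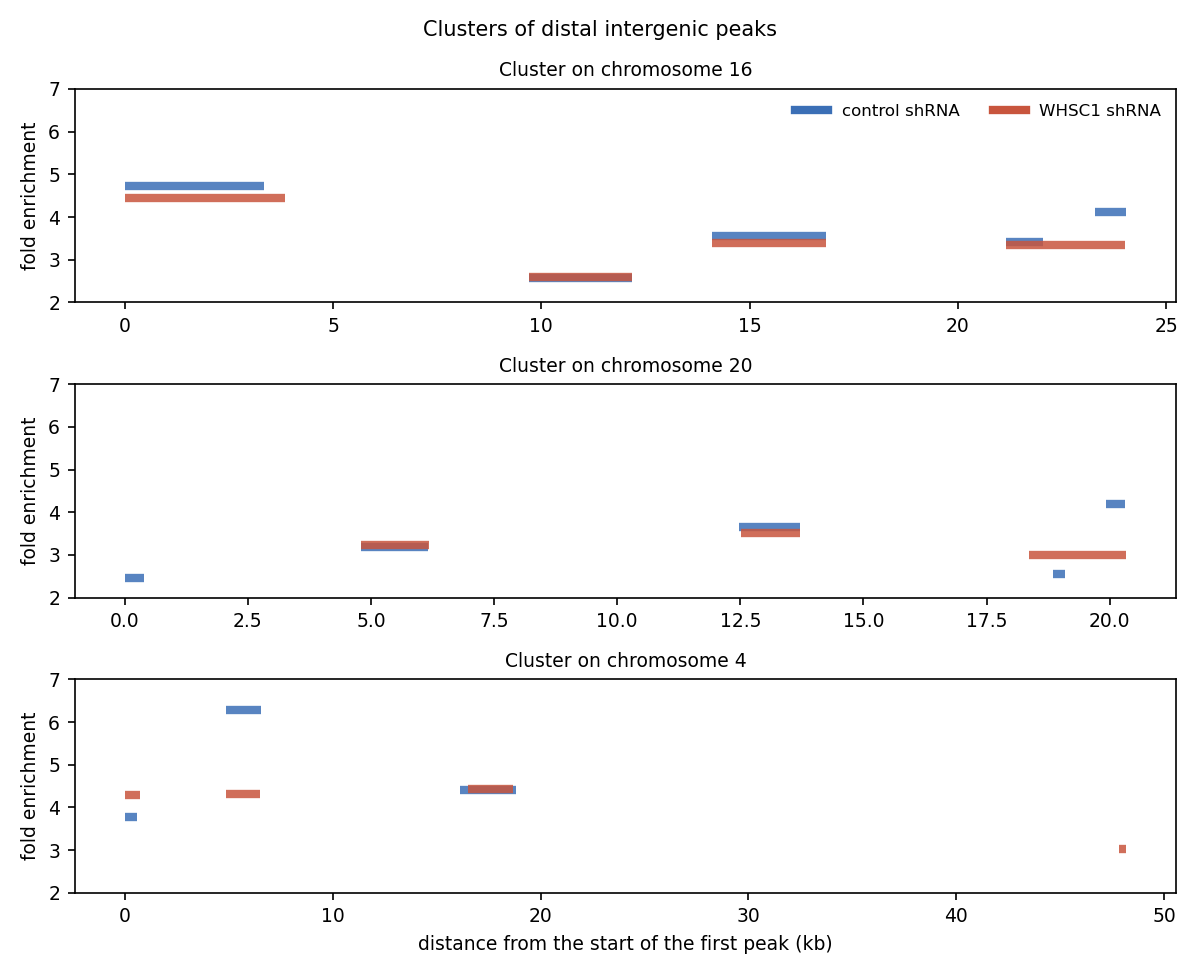
Peaks of the clusters present in both libraries, on chromosomes 16, 20 and 4, by distance from the start of the first peak (x axis, kb) and fold enrichment (y axis), control in blue and knockdown in red, each bar as long as its peak. On chromosome 16 the bars of both libraries lie nearly on each other, and on chromosome 4 the second site stands at 6.29 in the control and 4.31 in the knockdown.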

How the data were processed

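ATAC-seq peaks of 2 C4-2 libraries (shCTR and shWHSC1) were grouped by the condition label. The submitters' processing notes name MACS2, Bowtie2 (2.2.9), ChIPseeker (1.22.1), CASAVA (1.8.2), Picard (1.101) and SAMtools (1.9), with build GRCh38. The sources used here do not give their roles, the Tn5 shift or how duplicates and multi-mapping reads were treated, which bears most on repeats. The authors deposited 1 list of broad peaks per library, not pooled. The deposited values of a peak are its fold enrichment (a ratio over local background), its −log10 p-value and −log10 q-value, and a score derived from the latter. The lists hold no read counts, so depth is unknown.

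Genes came from a RefSeq table of GRCh38.p14 (19974 protein-coding genes on the chromosomes used, 22049 noncoding and 16664 pseudogenes), and strand from a RefSeq promoter table. Sequence content of the peaks was not analysed here. Distances are edge to edge and coordinates 1-based. The overlap needed was 1 bp. With 1 library per group no test was made.

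Peaks named were drawn, per library, from the 10 with the highest fold and the 10 unshared with the highest −log10 q. Not all of those unshared peaks are described. Further ones are peaks of clusters, the 2 on either side of the limit, and list members. The planned naming of the shared peaks farthest from a protein-coding gene was left out. Other peaks named, such as those with the largest ratios or with a microRNA gene as the nearest gene, were chosen after their values were seen. The members and lists were chosen with earlier results of these data known. Alternatives tried were equal list lengths, a −log10 q of 5 or more, other distances and gene sets, stricter or looser overlap, merging, and other cluster gaps. The scripts were tested on simulated data and recovered 200 of 200 peaks planted at protein-coding gene ends, 200 of 200 planted in gaps between genes and 100 of 100 planted overlaps. Software was matplotlib 3.10.9, scipy 1.17.1, pandas 2.3.3 and numpy 2.4.6 on Python 3.11.15.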

Additional observations from a re-analysis of the deposited data

How the results depend on the processing

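Of 70 alternative values, 38 kept within 1.5 times the reported count or within the interval of the reported value, 31 moved and 1 reversed. No paired analysis was possible because each group is 1 library. With equal list lengths the ratio of knockdown to control peaks reversed to 0.846, the knockdown share of all peaks was 17.0%, its shared part 33.4% and its median fold 3.47. That cut dropped only the weakest knockdown peaks and left the control list whole, which favours a lower knockdown count. At a −log10 q of at least 5, 23 of 191 control and 34 of 239 knockdown peaks were distal intergenic (12.04 and 14.2%). Their ratio of knockdown to control was 1.48, and no interval was computed for it. With partners held to the same limit 69.6 and 44.1% of these were shared, the median fold was 4.41 and 4.46, the distance to a protein-coding gene 188 and 177 kb, the nearest genes 14 and 25, and knockdown clusters 2. More than 10 kb from a gene end lay 16.8 and 16.2% of all peaks. With pseudogenes and other genes counted the shares were 13.7 and 13.8%, and without noncoding gene bodies 14.8 and 15.2%. When 50% of both peaks had to overlap, 25.1 and 21.4% were shared. The nearest gene of any kind was 15.7 and 15.6 kb away, and genes within 100 kb numbered 164 and 192. Without peaks within 3 Mb of a gene-free stretch, an alternative chosen after seeing the data, there were 0 clusters in either library. Read depth, which is unknown, limits what could be called in each list.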

Other observations

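Several protein-coding genes were the nearest gene of more than 1 distal intergenic region: 81 genes of 2 regions and 41 of 3 or more. LOC124904970 on chromosome 20 had the most, 11 regions with 6 control and 8 knockdown peaks. CWH43 and CSMD3 had 7 regions each. Those named here were chosen after their values were seen. On the long arm of chromosome 8 lay a gap of 2247 kb between KCNV1, a silent potassium channel subunit, and CSMD3. The next gap, of 1972 kb, lay between CSMD3 and TRPS1. Most peaks in these gaps were unshared, as were most distal intergenic peaks: 277 of 403 in the control and 349 of 473 in the knockdown. At a −log10 q of 1 to 1.5, 121 of 129 control and 144 of 156 knockdown members were unshared. CSMD3 was nearest to 5 control and 2 knockdown peaks, none shared, of 3.02- to 4.19-fold enrichment. KCNV1 was nearest to 1 control and 5 knockdown peaks, none shared, of 2.85- to 3.08-fold. TRPS1 was nearest to 2 control and 4 knockdown peaks, of which 1 pair was shared (control fold 3.66, knockdown fold 4.97).

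TMEFF2, a transmembrane protein gene expressed in brain and prostate, was nearest to 2 control and 4 knockdown peaks, 1 pair of them shared (control fold 4.27, knockdown fold 3.58, 1280 kb away). XPNPEP1, an aminopeptidase gene, was nearest to 4 control and 3 knockdown peaks, with 1 shared pair of 3.13-fold and 3.14-fold. CADM2, a neuronal adhesion gene, was nearest to 3 control and 2 knockdown peaks, with a shared pair 73.3 kb away (4.39-fold and 3.74-fold). BCHE, the butyrylcholinesterase gene, was nearest to 0 control and 4 knockdown peaks, between 25.2 and 403 kb away.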
